A study of Rattus norvegicus with 30 samples.

Results

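Q74 line 4 and Q74 line 6 are separate lines of PC12 cells, a rat phaeochromocytoma line, that carry the same inducible construct. The construct encodes an exon 1 fragment of huntingtin with 74 glutamines, fused to the Green Fluorescent Protein, and was switched on with 1 μg/ml doxycycline. RNA of each line was taken before induction (day 0) and on days 1 and 5, with 2 separate RNA isolations for each line and day, so 12 of the 30 arrays of the series belong to these lines, 6 to line 4 and 6 to line 6. Of the other arrays, 12 hold RNA of Q23 lines 1 and 5, which carry a fragment with 23 glutamines and were treated likewise, and 6 hold RNA of PC12 cells with no construct. The lines with a construct were cultured alike, in medium with G418 and hygromycin. The paper states that PC12 cells with no construct had the same conditions, as a control for doxycycline. Whether this included those antibiotics is not spelled out. All were sampled on the same days. In the Q74 lines, aggregates were present in few expressing cells on day 1 and in nearly all of them on day 5, by the study's methods. The arrays were chosen by the line and day in their titles. The question was how far the lines differ before and during induction, and whether line 4 answers induction with a larger copy of the response of line 6 or with other transcripts.

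Huntingtin is a large cytoplasmic protein, and its first exon holds the glutamine stretch whose expansion causes Huntington's disease. Fragments with a long stretch fold wrongly, collect in aggregates and disturb transcription and protein turnover. PC12 cells make and store catecholamines and are widely used as a neuron-like model. A stable line grows out of few transfected cells, and lines made with the same construct can differ in where and how often it was inserted and in what the founding cell expressed. Whether both RNA isolations of a line and day came from the same dish is not stated in the sources used here, and the level of the huntingtin fragment was not analysed here.

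The values are normalized signals of 22521 probes on a log scale, read as natural logs because the highest value, 11.1, lies close to the natural log of a 16-bit scanner's maximum (11.1), although the log base is not stated. Folds are the exponential of a difference, and they understate the change of dim probes, because the normalization is close to linear there. Array medians were 4.77 to 4.82 in Q74 line 4, 4.77 to 4.81 in Q74 line 6, 4.74 to 4.81 in the Q23 lines and 4.80 to 4.85 in PC12 cells, whose array means (at most 5.52) lay below those of the arrays with a construct (at least 5.57). The RNA isolations of line 4 lay further apart than those of line 6. The SD over probes of the difference between isolations was 0.183 on day 0, 0.152 on day 1 and 0.138 on day 5 in line 4, against 0.115 to 0.123 in line 6. A probe was called when its adjusted p was under 0.05 in limma, fitted to the 24 arrays with a construct and adjusted over all probes. The fit takes 1 spread per probe for all groups, which can add calls that use line 4 day 0 and lose calls within line 6. The spread in this test is that between RNA isolations, which the study names as technical replicates, so a call speaks of these lines as cultured and not of Q74 lines at large. No table used here gives the gene of a probe. The labelled cell type could therefore not be checked against marker genes, and results are given for counts of probes and for 4 probes by identifier.

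Before induction 1432 of 22521 probes (6.36%) differed between Q74 line 4 and Q74 line 6, with 638 higher and 794 lower in line 4 and a median size of 1.57-fold. On day 1 the count was 1310 (5.82%), with 641 higher and 669 lower in line 4. On day 5 it was 1773 (7.87%), with 767 higher and 1006 lower. In the same fit the Q23 lines, 1 and 5, differed in 19 probes (0.0844%) on day 0, 19 (0.0844%) on day 1 and 16 (0.071%) on day 5. Whether the pairs of lines differ in this was not itself tested. An array reads the pooled RNA of a dish, so a large difference in some cells and a small one in all of them cannot be told apart, nor can fewer cells of a kind and less RNA per cell. Counts moved with single arrays. The day 0 count was 722 without line 4 day 0 isolation 1, 2365 without isolation 2 of the same line and day, and 607 without line 6 day 0 isolation 2. The larger share lower in line 4 on day 0 was not kept without line 4 day 0 isolation 1 (363 of 722 higher) or line 6 day 0 isolation 1 (491 of 960 higher), nor that on day 1 without line 6 day 1 isolation 1 (445 of 879 higher). The day 1 count was 645 without line 4 day 1 isolation 1 and 611 without line 6 day 1 isolation 2, and the day 5 count was 926 without line 4 day 5 isolation 1, 1096 without line 6 day 5 isolation 1 and 975 without line 6 day 5 isolation 2.

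The difference between the lines lasted. In all, 687 probes (3.05%) were called on each of the 3 days with the same sign, 246 of them higher and 441 lower in line 4 than in line 6. Each day has its own arrays, so these calls share the lines but no array. They are not independent, since they share an estimate of the spread and a probe with a small spread passes all 3 more easily. Deviations of same-numbered isolations also correlated between days within each line. Across probes (which do not count as replicates) the line 4 minus line 6 difference on day 0 correlated with that on day 1 (r = 0.84) and on day 5 (r = 0.68), and day 1 with day 5 (r = 0.72). For line 1 minus line 5 of Q23 the same correlations were 0.58, 0.51 and 0.44. The count of 687 was 456 without line 6 day 0 isolation 2 and 437 without line 6 day 1 isolation 2.

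**Figure D1:**
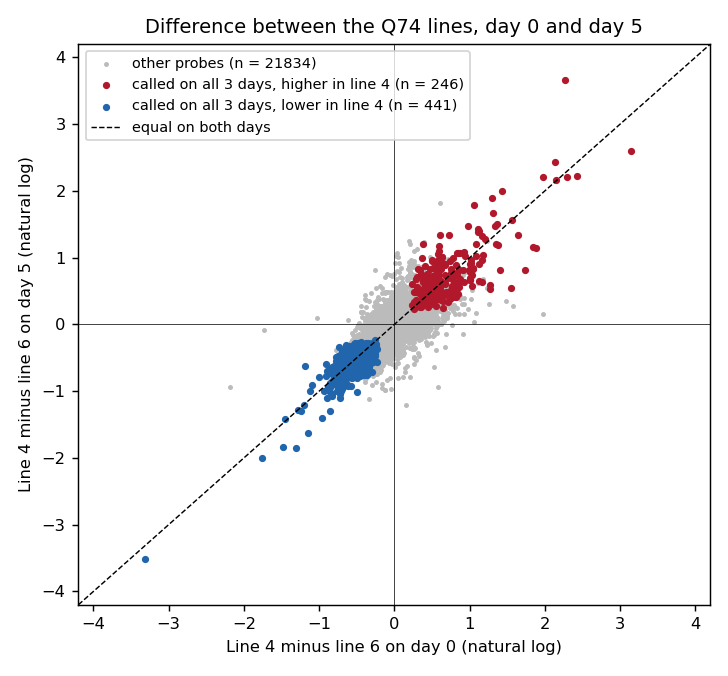
Each point is a probe, with the line 4 minus line 6 difference on day 0 (x axis) and day 5 (y axis), both on the natural log scale and each from 2 RNA isolations a line. The 246 probes called higher (red) and the 441 called lower (blue) in line 4 on all 3 days lie around the line of equal differences, and 1 probe lies far below all others at -3.32 and -3.51.

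Most of these lasting differences were moderate. Averaged over the days, the 687 probes differed by a median of 1.74-fold, with 1.44-fold and 2.47-fold at the 10th and 90th percentiles, and 179 of them differed by at least 2-fold. Differences of at least 4-fold were found in 22, of which 17 were higher and 5 lower in line 4. In 44 of the 246 and 7 of the 441 probes, the line with the lower signal lay at or below the median of all values, 4.79. Folds are compressed there. Over all 22521 probes this held in 11711.

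Line 6 lay further from the Q23 lines than line 4 did in most of the lasting set. The 441 probes lower in line 4 had a median level of 6.67 in line 4 and 7.27 in line 6, against 6.82 in Q23 line 1, 6.87 in Q23 line 5 and 6.90 in PC12 cells. Line 6 was further than line 4 from the mean of the Q23 lines in 370 of these 441 probes (83.9%). The corresponding share over all probes was 53.3%. The median distance from the Q23 mean was 1.12-fold for line 4 and 1.55-fold for line 6. The 246 probes higher in line 4 were split more evenly. Their median level was 6.37 in line 4 and 5.53 in line 6, against 6.05 and 5.99 in Q23 lines 1 and 5 and 5.68 in PC12 cells, and line 6 was the further one in 141 of 246 (57.3%). The Q23 mean lay between the Q74 lines in 143 of the 246 and 355 of the 441, and in 9643 of all 22521 probes. On day 0 the Q23 lines differed in 4 of the 687 probes, against 19 of all 22521. These shares are descriptions, with no test. PC12 levels are given as a description, since their arrays had lower means.

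The largest lasting differences averaged 19.3-fold where line 4 was higher and 29.5-fold where it was lower. Probe ILMN_1349449 had 9.01 and 9.04 in the RNA isolations of line 4 on day 0, 9.15 and 9.09 on day 1 and 8.79 and 8.64 on day 5. In line 6 it had 6.34 and 5.42 on day 0, 6.41 and 5.57 on day 1 and 6.51 and 5.71 on day 5. Line 4 was above line 6 in every isolation, and isolation 2 of line 6 was the lower one on each day. The difference was 23.3-fold on day 0 (3.15 on the natural log scale, standard error 0.26, adjusted p = 1.2e-07 in limma), 22.9-fold on day 1 and 13.5-fold on day 5. The Q23 arrays held 7.82 to 8.72 and the PC12 arrays 8.70 to 9.11, so line 6 was the line apart.

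Probe ILMN_1360802 went the other way. In line 4 it had 4.96 and 4.89 on day 0, 4.94 and 4.89 on day 1 and 4.98 and 4.86 on day 5, against 8.10 and 8.40, 8.13 and 8.35, and 8.35 and 8.50 on the same days in line 6. Line 4 stayed near the median of all probes, as did the Q23 arrays (4.54 to 4.78) and the PC12 arrays (4.55 to 4.75), and line 6 alone was bright. The probe was lower in line 4 by 27.7-fold on days 0 and 1 and by 33.5-fold on day 5 (standard error 0.10 on the natural log scale, adjusted p = 2.9e-15 on day 0 in limma). The signal in line 4 is not shown to be above background, so these folds are between measured signals and may be too small. Both probes were named as the largest mean differences in each direction, and each kept its call on day 0 in every alternative run for single probes.

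**Figure D2:**
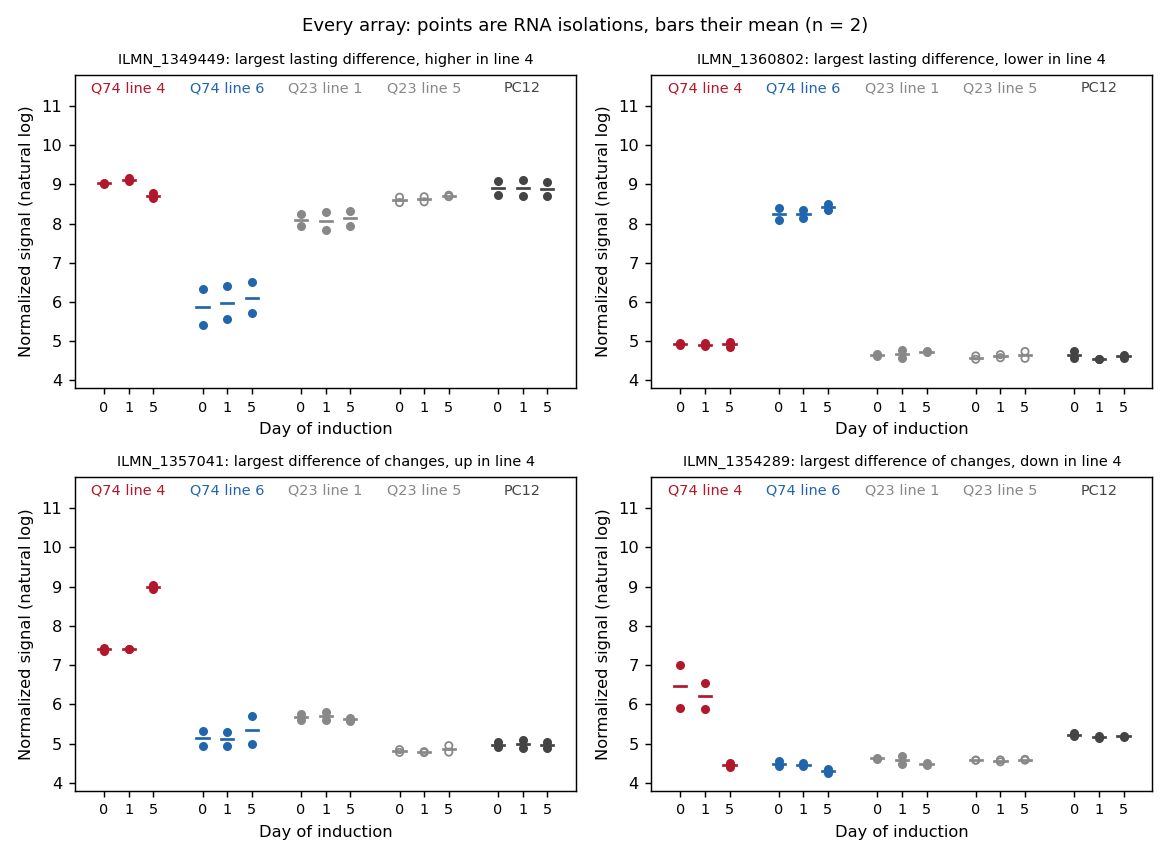
Normalized signal (natural log, y axis) of the 4 named probes on every array, by line and day of induction (x axis), with points for RNA isolations and bars for their mean (n = 2). The upper panels show probes that separate line 4 from line 6 on all days, and the lower panels show probes whose change from day 0 to day 5 differed most, with line 4 at 8.95 and 9.05 (left) and 4.50 and 4.41 (right) on day 5.

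To follow these differences on arrays not used for the choice, probes were taken from the day 1 arrays and read on those of days 0 and 5. The effect of choosing is not fully removed, because deviations of same-numbered isolations correlated between days. These correlations were 0.36 to 0.50 within line 4 and 0.26 to 0.33 within line 6, so error that favoured a probe on day 1 can recur. Of the 1310 probes called on day 1, 1301 had the same sign on day 0 and 1259 on day 5. The 669 that were lower in line 4 differed by a median of 1.57-fold on day 0 and 1.58-fold on day 5, and the 641 that were higher by 1.55-fold on day 0 and 1.40-fold on day 5. The difference was wider on day 5 than on day 0 in 325 of the 669 and in 245 of the 641. Among them the share of probes that changed between days 0 and 5 was above that over all probes, which is given as a description with no test. In line 4, 225 of the 641 (35.1%) and 98 of the 669 (14.6%) changed from day 0 to day 5, against 6.46% of all probes, and in line 6 48 (7.49%) and 36 (5.38%) did, against 1.21%. These calls share an estimate of the spread, so a probe with a small spread passes both more easily. Where line 4 changed, it moved towards line 6 in 148 of the 225 probes and away from it in 77. Among the 98 it moved towards line 6 in 64 and away in 34. Line 6 moved away from line 4 in 24 of the 48 and 24 of the 36. Towards line 6 means a fall in line 4 among the 641 and a rise among the 669. Of all 1454 probes called in line 4, 623 fell and 831 rose. Away from line 4 means a fall in line 6 among the 641 and a rise among the 669. Of all 272 probes called in line 6, 117 fell and 155 rose.

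Over the 12 Q74 arrays and all probes, the line took 41.4% of the sum of squares, the day 23.4%, the part in which the lines differ by day 8.53% and the RNA isolations 26.7%. Per degree of freedom the line came to 9.29 times the isolations, the day to 2.62 times and the line-by-day part to 0.957 times. Deviations of same-numbered isolations correlated between days, by 0.36 to 0.50 within line 4 and 0.26 to 0.33 within line 6. A deviation shared by the days enters the isolation part but not the day or line-by-day parts. The 0.957 therefore does not show that the lines changed alike.

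The lines changed little in the first day. In line 4, 19 probes (0.0844%) differed between day 1 and day 0, 18 of them up, and in line 6 there was 1 (0.00444%), also up. In no probe did the changes of the lines differ at an adjusted p under 0.05 in limma (0 called, 0%), and 488 had an unadjusted p under 0.05, which is 2.17% of all probes. The count in line 4 was 0 when the Q74 arrays were fitted alone. The change at day 1 was barely repeated between isolations. Over all probes it correlated with r = 0.05 between the isolations of line 4 and r = 0.09 between those of line 6. The slope of line 6 on line 4 changes, 0.14 on that day, is therefore given without a reading.

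By day 5 more probes were called as changed in line 4 than in line 6, although the difference between these counts was not tested. The fit assumes an equal spread in both lines, while the isolations of line 4 lay further apart. This can raise the count in line 4 and lower that in line 6, by an amount that was not tested. In line 4, 1454 probes (6.46%) had changed from day 0, 831 up and 623 down, with a median size of 1.51-fold. In line 6, 272 probes (1.21%) had changed, 155 up and 117 down, with a median size of 1.61-fold. These sizes are over different sets of probes. In the 190 probes called in both lines in the same direction, the medians were 1.81-fold in line 4 and 1.63-fold in line 6. A call in line 6 was part of that choice, on these same arrays, which can draw the medians together. Along the direction of line 4, the 1454 called there changed by a median of 1.18-fold in line 6. Along the direction of line 6, the 272 called there changed by a median of 1.58-fold in line 4. Most of the change came after day 1. Between days 1 and 5, 1084 probes (4.81%) changed in line 4, 619 up, and 188 (0.835%) in line 6, 119 up. Of the 1454 probes called in line 4, 1305 (89.8%) moved in the same direction in line 6, and of the 272 called in line 6, 258 (94.9%) did so in line 4. Over all probes this share was 60.5%. The lines share no array, but they share normalization and array type, and doxycycline and time in culture cannot be told apart from the fragment within a line. The excess of rises in line 4 did not hold without line 4 day 0 isolation 1, where 350 rose and 413 fell. The count in line 4 was 763 without that array, 796 without line 4 day 5 isolation 1 and 834 without line 4 day 5 isolation 2. The count in line 6 was 95 and 116 without isolation 1 and 2 of its day 0, and 94 and 81 without isolation 1 and 2 of its day 5. Of the 116, 47 rose and 69 fell.

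Across all 22521 probes the changes at day 5 correlated between the lines (r = 0.55), and line 6 moved by 0.38 for each unit of change in line 4. From isolation 1 alone the slope was 0.28, and from isolation 2 alone 0.35. Error in the line 4 changes lowers such a slope. The change at day 5 correlated with r = 0.60 between the isolations of line 4 and r = 0.51 between those of line 6. When the covariance between isolations was used in place of the variance, the slope of line 6 on line 4 was 0.49 and that of line 4 on line 6 was 1.13. The SD of the repeated part of the change was 0.158 in line 4 and 0.104 in line 6. Its correlation between the lines was 0.74, so that 55.2% of the repeated variance was held in common. With a scaled copy, and no error shared by the isolations of a line and day, this correlation would be 1 and the slopes would be reciprocals. Whether they share such error is not known, and it would count as repeated change. No error is given for the 0.74, and at day 1 the same estimate came to 1.60, beyond the range of a correlation.

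**Figure D3:**
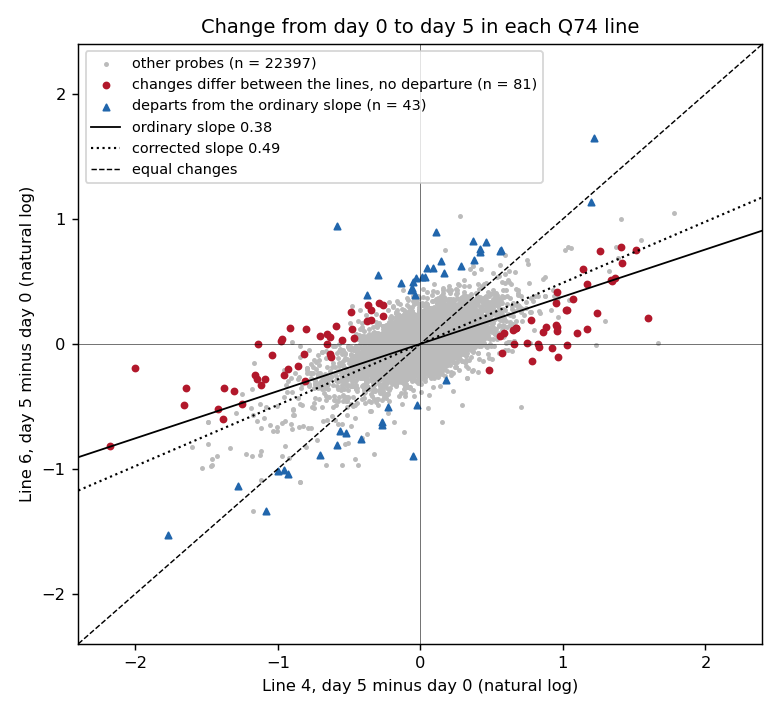
Each point is a probe, with its change from day 0 to day 5 in line 4 (x axis) and in line 6 (y axis) on the natural log scale. Lines show the ordinary slope of 0.38, the slope of 0.49 corrected for error, and equal changes. Red points are 81 probes whose changes differ between the lines, and blue triangles are 43 that depart from the ordinary slope, 10 of which also differ between the lines.

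The lines looked different depending on which of them chose the probes. To keep the choice apart from the measurement, probes that changed by at least 1.5-fold in 1 isolation of a line were read in the other isolation of both lines. Probes chosen in line 4 moved less in line 6. The 344 that rose in line 4 isolation 2 rose by a mean of 1.81-fold in isolation 1 of line 4 and by 1.28-fold in isolation 1 of line 6, and the 410 that fell changed by 1.85-fold and 1.40-fold. Over both directions and both isolations, line 6 moved by 0.422 to 0.548 of the change in line 4. Probes chosen in line 6 moved about as far in line 4. The 143 that rose in line 6 isolation 2 rose by 1.60-fold in isolation 1 of line 4 and by 1.59-fold in isolation 1 of line 6, and the 148 that fell changed by 1.99-fold and 1.88-fold. Here line 4 moved by 0.881 to 1.28 of the change in line 6. A scaled copy at the corrected slope would give the reciprocal of 0.49, if the isolations of a line and day share no error. The ratio was widest for the 202 that fell in line 6 isolation 1, with 1.84-fold in line 4 and 1.61-fold in line 6. These ratios are descriptions, with no test. Most probes kept their direction. Of each choice in line 4, at least 80.7% did so in line 6. Of each choice in line 6, at least 81.1% did so in line 4. Over all probes, 48.4% to 51.6% moved in the direction in question. In each choice, 1 to 3 probes moved by at least 1.5-fold in the opposite direction. Moves of that size in 1 isolation and 1 direction were few over all 22521 probes. There were 344 to 778 in line 4 and 127 to 202 in line 6.

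**Figure D4:**
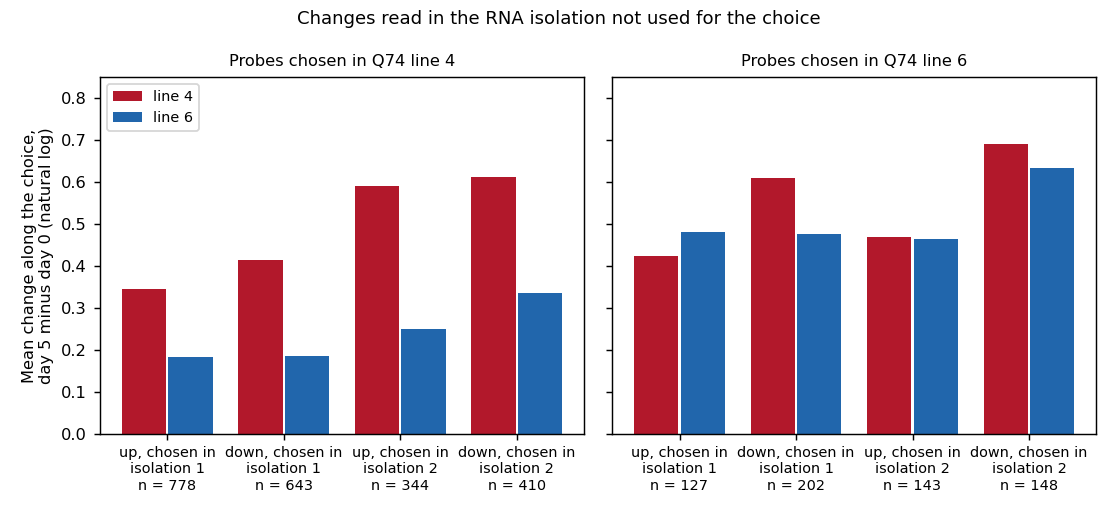
Mean change from day 0 to day 5 along the direction of the choice (natural log, y axis) in line 4 (red) and line 6 (blue), for probes chosen by a change of at least 1.5-fold in 1 RNA isolation and read in the other (x axis, direction, isolation of the choice and number of probes). Line 4 stands above line 6 in all 4 pairs of bars for probes chosen in line 4, and the bars are of similar height for probes chosen in line 6.

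A call in 1 line and not in the other is no difference, so the difference between the changes was tested directly. Of the 1454 probes called in line 4, 1263 were not called in line 6, but 1115 of these still moved in the same direction there, and the median change in line 6 along that direction was 1.16-fold. The changes at day 5 differed between the lines in 91 probes (0.404%), with the larger rise or smaller fall in line 4 in 41 and the reverse in 50. This split was not stable, since the first kind was the more frequent (50.8% to 59% of calls) when any 1 of 7 arrays was left out. Line 6 lay at or below the median of all values on day 0 in 12 of the 41 and 3 of the 50, against 11274 of all 22521 probes. Line 4 had the larger change in 79 of the 91, against 13141 of all 22521 probes. The changes had the same sign in 56 of the 91 (61.5%), and in 60.5% of all probes. The 91 were chosen for a large difference of changes on these same arrays. Such a choice favours opposite signs and unequal sizes, so the shares over all probes are no yardstick here. The gaps in size given below may be overstated for the same reason. Of the 79, 53 had the same sign, with medians of 2.91-fold in line 4 and 1.28-fold in line 6. The other 26 of the 79 had opposite signs. Line 4 alone was called in 65 of the 91, line 6 alone in 8 and both in 17. Of those 17, 16 moved in the same direction, by a median of 3.83-fold in line 4 and 1.69-fold in line 6. The exception fell by 1.80-fold in line 4 and rose by 2.56-fold in line 6. In the 65 called in line 4 alone the median change was 2.28-fold in line 4 and 1.08-fold, along the same direction, in line 6. Where the interval (95%) of the change in the silent line also had to lie within 1.2-fold either way, 0 probes moved in line 4 only and 1 in line 6 only. The median half-width of that interval was 1.19-fold, and it was under 1.2-fold in 12979 of 22521 probes. A typical probe could therefore meet this bound only with almost no change. The split of 0 and 1 was not stable. After quantile normalization all 5 such probes moved in line 4 only, as did all 4 with a variance trend and robust prior. With a bound of 1.5-fold, chosen after the data had been seen, 44 probes moved in line 4 only, 22 up and 22 down, and 7 in line 6 only, 5 up and 2 down. The count of 91 was 46 without line 4 day 0 isolation 1, 199 without line 4 day 0 isolation 2, 29 without line 4 day 5 isolation 1, 52 and 39 without isolation 1 and 2 of line 6 day 0, and 38 without either isolation of line 6 day 5.

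Of the 91, the largest difference upwards was that of probe ILMN_1357041. In line 4 it had 7.37 and 7.43 on day 0, 7.41 and 7.42 on day 1 and 8.95 and 9.05 on day 5. In line 6 it had 5.33 and 4.94 on day 0, 5.30 and 4.94 on day 1 and 5.70 and 4.98 on day 5. It was thus already brighter in line 4 before induction, by 9.63-fold, and rose there after day 1. The change was 4.94-fold in line 4 and 1.23-fold in line 6, and the difference of the changes was 1.39 on the natural log scale (standard error 0.22, adjusted p = 0.0045 in limma). Line 4 lay above all Q23 and PC12 arrays on every day, and the Q23 lines also differed from each other, by 2.36-fold on day 0 (adjusted p = 0.032 in limma).

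The largest difference downwards was that of probe ILMN_1354289. In line 4 it had 7.00 and 5.91 on day 0, 6.55 and 5.89 on day 1 and 4.50 and 4.41 on day 5. In line 6 it had 4.56 and 4.42 on day 0, 4.42 and 4.51 on day 1 and 4.25 and 4.35 on day 5. Line 4 began 7.16-fold above line 6 and fell to its neighbourhood by day 5, where they differed by 1.17-fold (adjusted p = 0.81 in limma). Line 6 lay below the median of all values (4.79) on every day and line 4 did so on day 5, so these signals are not shown to be above background and line 6 had little room to fall. The signal fell by 2.00 on the natural log scale in line 4 and by 0.19 in line 6, a difference of -1.81 (standard error 0.30, adjusted p = 0.0051 in limma). The isolations of line 4 lay over 1 unit apart on day 0, and the difference was -1.27 without isolation 1 and -2.36 without isolation 2 of that line and day. The adjusted p was 0.059 when the Q74 arrays were fitted alone and 0.067 with a variance trend and robust prior.

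Departure from a common factor was tested as the change in line 6 minus 0.38 times that in line 4. It was called in 43 probes (0.191%), 26 above and 17 below the factor. Nearly all were probes that moved far in line 6, with 42 of the 43 called there and 40 having the larger change in line 6. The test gives line 4 less weight than line 6, so it finds excess in line 6 more readily than excess in line 4. In 33 of the 43 the lines moved in the same direction, by a median of 1.52-fold in line 4 and 2.11-fold in line 6, and in 10 in opposite directions. With other factors between 0 and 1.5, chosen after the data had been seen, the count ran through a minimum of 22 probes at 0.6, with 31 at the corrected slope of 0.49, 91 at a factor of 1 (equal changes) and 272 at a factor of 0 (no change in line 6). The standard error of this test grows with the factor, so the counts and their minimum do not rank the factors by fit. A probe that was not called is not shown to follow the factor. The count of 43 was 83 without line 4 day 0 isolation 2, 20 without isolation 1 and 22 without isolation 2 of line 6 day 0, and likewise 20 and 22 for line 6 day 5.

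**Figure D5:**
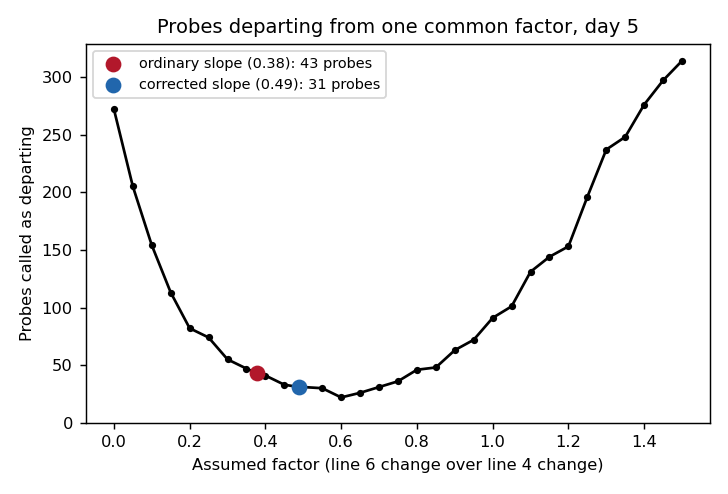
Number of probes called as departing from a common factor at day 5 (y axis) against the assumed factor, the change in line 6 over that in line 4 (x axis). The count is 43 at the ordinary slope (red), 31 at the corrected slope (blue) and 22 at its lowest, at 0.6, against 91 at 1 and 272 at 0. The standard error grows with the factor.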

How the data were processed

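RNA was hybridized to Illumina RatRef-12 arrays. Probe averages came from BeadStudio with no background subtracted. The authors then normalized them with the VSN package in R, and the deposited values are read here as natural log values. Whether all arrays were normalized together is not given in the sources used here. With limma 3.58.1 in R 4.3.3, means of the 12 line-and-day groups of the 24 arrays with a construct were fitted to these values (12 residual degrees of freedom). The line difference on each day, the change from day 0 in each line, the difference of changes and the departure from a common factor were tested on both sides, with Benjamini-Hochberg adjustment over 22521 probes. PC12 arrays stayed out of the fit. The fit and the slope correction were tested on simulated data with independent errors and an equal spread on all arrays. The real arrays had a wider spread in line 4 and deviations that correlated between days, so the simulation does not cover those features. Python 3.11.15 and matplotlib 3.10.9 drew the plots.

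The members and lists were chosen with earlier results of these data known. The named probes are, by rule, those with the largest mean lasting difference and the largest called difference of changes at day 5, 1 in each direction. Gene lists and cell type markers were not tested, because probes are not paired with genes in the tables used here. Chip and scan date are not in the labels, and no batch was tested. The number of arrays limits the precision. Alternatives covered normalization, dim probes, the arrays fitted, RNA isolation number as a block, the variance model, a minimum fold, the slope estimator and leaving out arrays.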

Additional observations from a re-analysis of the deposited data

Results flagged for a closer look

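The changes from day 0 to day 5 differed between Q74 line 4 and Q74 line 6 in 91 probes when limma tested that difference itself. The named probes of this set differed in their changes by 1.39 (ILMN_1357041) and -1.81 (ILMN_1354289) on the natural log scale, the second with line 6 below the median of all values on every day. All 3 values were picked out because the same contrast differed between the cell lines.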

How the results depend on the processing

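No slope and no difference of a named probe changed sign in the alternatives run for it. The majority of calls turned in some, outside the lasting set, where line 4 stayed lower in the larger part. Without isolation 1 of both lines, 305 of 564 probes were higher in line 4 on day 0, 273 of 541 on day 1, 162 of 365 rose in line 4 by day 5, and 4 of 7 differences of changes and 1 of 4 departures were above 0. Without isolation 2, 27 of 57 rose in line 6 by day 5, and 15 of 24 differences and 4 of 11 departures were above 0. On day 1, 919 of 1790 were higher in line 4 with the replicate block and 598 of 1192 with a variance trend and robust prior, and 85 of 177 rose in line 6 with a minimum of 1.5-fold. For the Q23 lines on day 0, 10 of 22 were higher in line 1 after quantile normalization and 8 of 17 without the dimmer probes. Counts of calls that moved by over 1.5 times, and slopes that moved by more than the SD between RNA isolations, were these. After quantile normalization, the change at day 1 was called in 10 probes in line 4 and 2 in line 6, and 5 probes moved in line 4 only. With arrays centred on their medians, the day 1 count was 10 in line 6. With the dimmer probes (those below the median of the mean signal) left out, 0 moved in 1 line only and the day 1 slope was 0.224. With the 12 Q74 arrays fitted alone, the day 1 counts were 0 in both lines and the day 5 count was 176 in line 6. In that fit the difference of changes at day 5 was called in 50 and 2 probes moved in line 4 only. With a variance trend and robust prior, the day 1 counts were 6 in line 4 and 0 in line 6, and 4 probes moved in line 4 only. With a minimum of 1.5-fold, the lines differed in 865 probes on day 0, 794 on day 1, 996 on day 5 and 445 on all days, 765 changed by day 5 in line 4 and 177 in line 6, and 0 moved in 1 line only. The slope at day 5 was 0.489 after correction, 0.524 as major axis and 0.439 over called probes, and that at day 1 was 1.91, 0.452 and 0.704.

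With RNA isolation number as a replicate block, the day 1 counts were 41 in line 4 and 18 in line 6, and the day 5 count in line 6 was 442. The difference of changes was called in 198 probes, the departure in 91, and 10 moved in 1 line only, 8 of them in line 4. The Q23 counts on days 0, 1 and 5 were then 53, 45 and 58. The isolations share only a number in the labels. The deviations of same-numbered isolations correlated with 0.36 to 0.50 within line 4, 0.26 to 0.33 within line 6 and 0.03 to 0.20 between them. With a replicate block within each line, added after seeing the data, day 1 counts were 62 in line 4 and 43 in line 6, and day 5 counts 2376 and 654. The difference of changes was then 345, the departure 173, and 31 probes moved in 1 line only, 26 of them in line 4. With a bound of 1.5-fold in the main fit, 51 moved in 1 line only, 44 of them in line 4.

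Leaving out single arrays, or all Q74 arrays of an isolation number, gave ranges of 564 to 2365 for the line difference on day 0, 541 to 1548 on day 1, 717 to 2012 on day 5 and 302 to 778 on all days. For changes they were 0 to 21 (line 4) and 0 to 9 (line 6) at day 1, and 365 to 1993 (line 4) and 52 to 330 (line 6) at day 5. The difference of changes ranged over 0 to 4 at day 1 and 7 to 199 at day 5, the departure over 4 to 83, probes moving in 1 line only over 0 to 10, and the slope over 0.275 to 0.390 at day 5 and 0.0287 to 0.183 at day 1. Where a group keeps 1 array, it is assumed to vary like the others, and the standard error grows by construction. The causes of other moves were not tested.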
